A study of Homo sapiens with 30 samples.

Results

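The G1 cyclins, their cyclin-dependent kinases (CDKs) and the RB family set the point at which a cell commits to copying its DNA. The 10 genes described here were chosen by name: the D cyclins CCND1, CCND2 and CCND3, their kinases CDK4 and CDK6, the E cyclins CCNE1 and CCNE2, their kinase CDK2, and the pocket proteins RB1 and RBL1. They are 10 of the 20367 gene symbols in the deposited PRO-Seq table, and all 10 passed the filter on low counts for both the gene body and the promoter-proximal region. A D cyclin bound to CDK4 or CDK6 begins the phosphorylation of the RB protein, an E cyclin bound to CDK2 continues it, and phosphorylated RB releases the E2F factors that transcribe S-phase genes. In malignant rhabdoid tumor, a childhood cancer caused by loss of SNF5, this switch is of interest because SNF5 is known to act on cyclin D1 and on the CDK inhibitor p16.

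All samples were G401 cells, a rhabdoid tumor line that lacks SNF5 (gene symbol SMARCB1), transduced with a lentivirus carrying an inducible, HA-tagged construct, selected with G418 and given 1 μg/ml doxycycline for 24 h. The construct was EGFP, the control, OmoMYC, a dominant-negative MYC mutant, or SNF5 itself. MYC ChIP-Seq was available for 2 samples per construct, ATAC-Seq for 3 and PRO-Seq, which maps active RNA polymerases by nuclear run-on, for 3. The study counts the PRO-Seq samples as independent experiments, each of cells combined from several plates.

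Reads on SMARCB1 matched the labels, with 11 gene body reads over the 3 EGFP samples, 11 over the OmoMYC samples and 10777 over the SNF5 samples. VIM, KRT8 and KRT18, which rhabdoid cells express, averaged between 6.14 and 38.6 RPKM (gene body reads per kb, scaled to depth) over the constructs, whereas PECAM1 had 0 reads in every construct and PTPRC had at most 2. EPCAM had a mean level between 0.040 and 0.052. Gene body totals ran from 28388012 to 46859674 reads per PRO-Seq sample. Promoter-proximal totals ran from 517824 to 671718 in the replicate 1 samples and from 2024662 to 3381190 in the others, so promoter-proximal values rest mainly on replicates 2 and 3.

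MYC binds as a dimer with MAX to the E-box CACGTG, a hexamer that reads the same on both strands. At the 10 loci with 10 kb on each side, MYC peaks came from the EGFP samples and from no OmoMYC or SNF5 sample. The EGFP samples had 940 and 5396 peaks genome-wide, the SNF5 samples 137 and 27, and each OmoMYC list held a single line whose name marks it as fake, which was read as 0 peaks. A gene counted as MYC-bound when overlapping peaks of both EGFP samples had a summit within 1 kb of the transcript start. By this rule 1 of the 10 genes, CDK4, was bound, beside 4.34% of all genes in the table. CCND2 and CCND1 had overlapping peaks of both samples farther upstream, so that a window of 5 kb gave 3 of 10, beside 4.97% of all genes. With replicate 1 left out, 4 genes had a peak within 1 kb (CCND1, CCND3, CCNE2 and CDK4), beside 23.1% of all genes in that sample.

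All E-boxes within 100 bp of a summit of the peaks shared by both EGFP samples are shown, because no other MYC peaks at the 10 genes were found in both. Each is a stretch of GRCh37 sequence on the strand of its gene, with the E-box in capitals and its distance from the start, negative upstream.
CDK4, chr12:58146177-58146206, minus strand, 36 bp from the start: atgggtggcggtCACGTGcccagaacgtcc
CDK4, chr12:58146272-58146301, minus strand, −59 bp: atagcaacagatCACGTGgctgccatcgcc
CCND2, chr12:4381763-4381792, plus strand, −1127 bp: catgcgttagagCACGTGtcagggccgacc
CCND2, chr12:4381592-4381621, plus strand, −1298 bp: ccatgcccgctgCACGTGccagcttggcca
CCND1, chr11:69451417-69451446, plus strand, −4444 bp: acgcagggcaacCACGTGgcggtggaaccg

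The CDK4 summits were 91 bp (EGFP replicate 1, fold enrichment 5.05) and 31 bp (replicate 2, 10.2) downstream of the start, both in a UTR exon. In replicate 2 the CDK4 peak was higher than 95.6% of all peaks, and in replicate 1 higher than 28.6%. The replicate 2 summit lay 8 bp from an E-box, and the 300 bp from 250 bp before to 50 bp after the CDK4 start held 4 of them. The other genes had at most 1 E-box there, at CCND3, and 8.33% of all 20367 promoters of that length held at least 1. At CCND2, whose summits were at −1119 bp (5.42) and −1216 bp (6.54) in an intron of longer CCND2 transcripts and of the antisense gene CCND2-AS1, the replicate 1 summit lay 6 bp from an E-box. At CCND1 the shared peak was intergenic, with summits at −4470 bp (4.77) and −4408 bp (10.3), 28 bp and 34 bp from the same E-box. The EGFP replicate 2 sample alone had further peaks at CCND1, CCND2 and CCND3. Of those at CCND3, the peak at −1646 bp lay 2 bp from the TAF8 start. A peak at −692 bp from the CCNE2 start lay 109 bp from the NDUFAF6 start. One 3472 bp downstream of the CDK6 start, in a coding exon, lay 762 bp from another annotated CDK6 start. The peaks at CDK6 and CCNE2 had no CACGTG within 100 bp of the summit. Over all peaks, 51.3% of those in EGFP replicate 1 and 26.1% of those in replicate 2 had one.

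E2F sites are the other sequence of interest at these genes, since some members of the switch are themselves E2F targets. The same 300 bp windows were searched on both strands for TTTCCCGC, TTTGGCGC, TTTCGCGC and TTTGCCGC, 4 different words, so no position is counted more than once. CCND1, RB1 and RBL1 held a match, which is 3 of 10 genes, and 3.88% of all promoters did. The matches at RB1 and RBL1 are shown in capitals, on the strand of the gene in GRCh37, because both encode proteins that act through E2F. The windows of RBL1 overlap. A match is a description of the letters and not evidence of binding.
RB1, chr13:48877851-48877880, plus strand, −21 bp from the start: ggaagtgacgtTTTCCCGCggttggacgcg
RBL1, chr20:35724408-35724437, minus strand, −16 bp: cagctgcagatTTTCGCGCgctttggcgca
RBL1, chr20:35724398-35724427, minus strand, −6 bp: ttttcgcgcgcTTTGGCGCaggtggttgtg

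To compare levels between genes, gene body counts were divided by the length of the gene body and the scaled depth, giving the level in RPKM. In EGFP cells CCND1 stood highest, with a mean of 13.6 ± 3.43 (SD, n = 3), above 98.4% of the genes in the table. CCND2 (7.73 ± 7.57) and CDK4 (7.67 ± 0.67) followed and could not be ordered, because the CCND2 samples ranged from 3.15 to 16.5. CCNE1 (3.10 ± 0.031) and CDK2 (2.41 ± 0.74) formed the next step, and they overlapped, since the CDK2 samples ran from 1.69 to 3.17. CDK6 (1.06 ± 0.16), CCNE2 (0.83 ± 0.17), RBL1 (0.77 ± 0.13) and RB1 (0.695 ± 0.067) followed, with overlapping samples between each gene and the next. CCND3 was lowest at 0.37 ± 0.034. With SNF5, CDK6 averaged 2.43 ± 0.51, next to CCNE1 (2.60 ± 0.21) and CDK2 (2.55 ± 0.39). The table counts CCND3 and CDK6 on long transcripts, NM_001136017 and NM_001145306, so a level or a promoter-proximal count here refers to those transcripts and can miss starts further downstream.

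**Figure D1:**
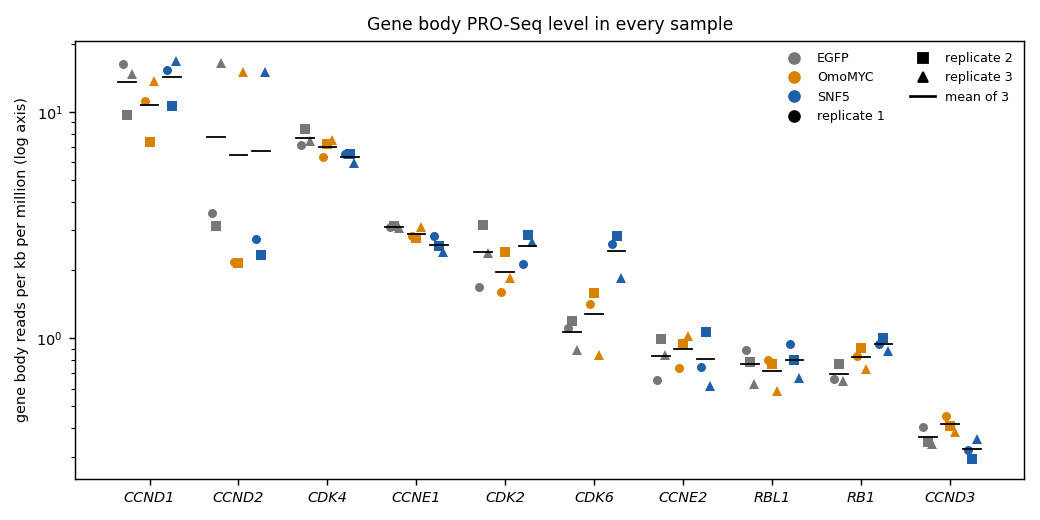
Gene body PRO-Seq level of each of the 10 genes (x axis, ordered by the EGFP mean) in RPKM on a log axis, with 1 point per sample, colors for the constructs, shapes for the replicate numbers and a bar for the mean of 3 samples. The 3 SNF5 points of CDK6 lie between 1.85 and 2.83, above all EGFP and OmoMYC points, and replicate 3 of CCND2 stands far above the other replicates in every construct.

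To ask which of these genes carried more or fewer elongating polymerases after SNF5 was restored or MYC was inhibited, gene body counts of 15060 genes were compared with EGFP by the quasi-likelihood test of edgeR, blocking on replicate number and adjusting p-values by the Benjamini-Hochberg method. With SNF5, CDK6 and RB1 rose, and CCND2, CDK4 and CCNE1 fell. That is 2 of 10 genes higher, beside 17.6% of all genes tested, 3 lower, beside 16.5%, and 5 called in either direction, beside 34.1%. With OmoMYC, RB1 rose and CCND1 and CCND2 fell, which is 1 higher, beside 4.1% of all genes, 2 lower, beside 4.42%, and 3 in either direction, beside 8.53%. The 10 genes had a median log2 fold change of 0.010 with SNF5 and −0.098 with OmoMYC, and over all genes the medians were −0.025 and −0.00029. Without the replicate block none of the 10 genes was called by edgeR in either comparison. Both comparisons use the same EGFP samples, so their values are set side by side and are not independent.

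**Figure D2:**
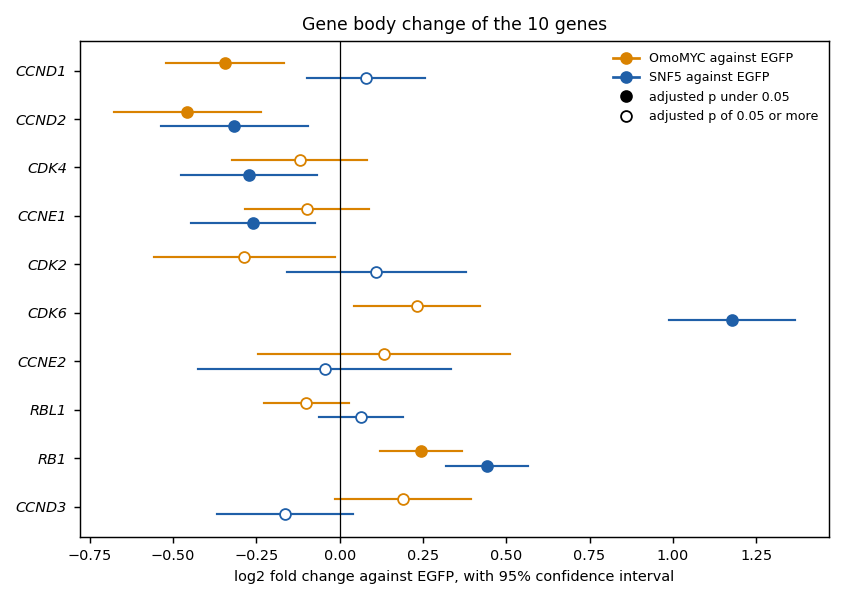
Gene body log2 fold change against EGFP (x axis) of the 10 genes (y axis) with OmoMYC and with SNF5, as point and 95% confidence interval, filled where the adjusted p was under 0.05. CDK6 with SNF5 lies at 1.18, apart from the other genes, and every other point lies between −0.46 and 0.44.

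CDK6 (chr7:92234235-92465941, minus strand, hg19), a kinase that partners the D cyclins, had the largest gene body change of the 10 genes. Its gene body counts were 8902, 8176 and 9470 with EGFP, 11269, 10791 and 9110 with OmoMYC and 24410, 23235 and 19033 with SNF5. The SNF5 samples were higher than every other sample, also as levels, where SNF5 ran from 1.85 to 2.83, EGFP from 0.89 to 1.19 and OmoMYC from 0.85 to 1.59. Within replicates 1, 2 and 3 the SNF5 level was 2.35-, 2.37- and 2.09-fold the EGFP level. The fitted fold was 2.26 (log2 1.18, standard error 0.08, edgeR adjusted p = 4.4e-05), a log2 fold change above that of 92.4% of tested genes. With OmoMYC the log2 fold change was 0.23 (standard error 0.08, edgeR adjusted p = 0.107), positive in replicates 1 and 2 and below 0 in replicate 3, and with replicate 3 left out it was 0.37 and was called (edgeR adjusted p = 8.49e-07). CDK6 was also higher with SNF5 than with OmoMYC (log2 0.95, standard error 0.08, edgeR adjusted p = 0.00019). The rise with SNF5 was called in 10 of 11 alternative analyses, with a log2 fold change between 1.15 and 1.23, the exception being the fit without the block (edgeR adjusted p = 0.0744).

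CDK4 (chr12:58141510-58146230, minus strand), the other kinase of the D cyclins and the gene with the shared MYC peak at its start, fell with SNF5. Its levels were 7.14, 8.42 and 7.43 with EGFP, 6.32, 7.25 and 7.55 with OmoMYC and 6.51, 6.55 and 5.95 with SNF5. The SNF5 samples were all lower than the EGFP samples, whereas OmoMYC overlapped both. The fold was 0.83 with SNF5 (log2 −0.27, standard error 0.09, edgeR adjusted p = 0.0447) and 0.92 with OmoMYC (log2 −0.12, edgeR adjusted p = 0.412). The fall was called in 6 of 11 alternatives and in 1 of the 3 that left out a replicate, with an adjusted p of up to 0.332 there.

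CCND1 (chr11:69455873-69469242, plus strand), the cyclin D1 gene, fell with OmoMYC and not detectably with SNF5. Its levels were 16.2, 9.70 and 14.8 with EGFP, 11.2, 7.37 and 13.7 with OmoMYC and 15.4, 10.6 and 16.9 with SNF5. The groups overlapped, replicate 2 being the lowest in each, and within each replicate OmoMYC was below EGFP, at 0.69-, 0.76- and 0.93-fold. The log2 fold change was −0.34 with OmoMYC (standard error 0.08, edgeR adjusted p = 0.035) and 0.08 with SNF5 (standard error 0.08, 95% confidence interval −0.10 to 0.26, edgeR adjusted p = 0.469). Tested directly, CCND1 was higher with SNF5 than with OmoMYC (log2 0.42, standard error 0.08, edgeR adjusted p = 0.00654). The call against EGFP was lost without replicate 1 or without replicate 2 (edgeR adjusted p of up to 0.513), and so was the direct one (up to 0.0977).

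CCND2 (chr12:4382902-4414522, plus strand), the cyclin D2 gene, fell with both constructs, by a log2 of −0.32 with SNF5 (standard error 0.10, edgeR adjusted p = 0.0342) and −0.46 with OmoMYC (standard error 0.10, edgeR adjusted p = 0.0309). Its gene body counts were 3784, 2864 and 23334 with EGFP, 2299, 1939 and 21539 with OmoMYC and 3383, 2541 and 20580 with SNF5. Replicate 3 was thus the highest in every construct, and its level was 5.23-, 7.02- and 6.48-fold the lowest replicate of the same construct for EGFP, OmoMYC and SNF5. A spread of at least 5-fold between replicates was found in 5.73%, 5.31% and 4.64% of 13053 genes. Within replicates 1 and 2 the SNF5 level was 0.77- and 0.74-fold the EGFP level and the OmoMYC level 0.61- and 0.68-fold, and in replicate 3 both were 0.92-fold. Both calls were lost when replicate 1 or replicate 2 was left out (edgeR adjusted p of up to 0.262 with SNF5 and 0.469 with OmoMYC), the call with SNF5 also with limma, and what replicate 3 had in common was not tested.

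CCND3 (chr6:41902671-42016610, minus strand), the cyclin D3 gene, was not called against EGFP. Its levels ran from 0.34 to 0.40 with EGFP, from 0.39 to 0.45 with OmoMYC and from 0.29 to 0.36 with SNF5. Its log2 fold change was −0.16 with SNF5 (edgeR adjusted p = 0.193) and 0.19 with OmoMYC (edgeR adjusted p = 0.199), and the 2 constructs differed from each other, with SNF5 lower (log2 −0.35, standard error 0.09, edgeR adjusted p = 0.0258). That difference was lost when replicate 1 or replicate 2 was left out (edgeR adjusted p of up to 0.254).

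Of the E cyclins, CCNE1 (chr19:30302901-30315215, plus strand) fell with SNF5. Its levels were 3.12, 3.12 and 3.07 with EGFP, 2.83, 2.76 and 3.11 with OmoMYC and 2.83, 2.55 and 2.41 with SNF5, the SNF5 samples all being lower than EGFP. The fold was 0.84 with SNF5 (log2 −0.26, standard error 0.08, edgeR adjusted p = 0.0381) and 0.94 with OmoMYC (edgeR adjusted p = 0.473). This fall was called in 6 of 11 alternatives and was lost without replicate 1 or replicate 2 (edgeR adjusted p of up to 0.26). CCNE2 gave a log2 fold change of −0.05 with SNF5 (95% confidence interval −0.42 to 0.33) and 0.13 with OmoMYC (−0.25 to 0.51), and neither was called.

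CDK2 (chr12:56360556-56366568, plus strand), the kinase of the E cyclins, was not called against EGFP with SNF5 (log2 0.11, edgeR adjusted p = 0.502) or OmoMYC (log2 −0.29, edgeR adjusted p = 0.152). Its levels were 1.69, 3.17 and 2.39 with EGFP, 1.60, 2.42 and 1.84 with OmoMYC and 2.12, 2.87 and 2.66 with SNF5, so that OmoMYC was below SNF5 within each replicate while the groups overlapped. The direct comparison was called (log2 0.40, standard error 0.12, edgeR adjusted p = 0.048), but in only 6 of 11 alternatives. In that comparison of the 2 constructs, 4 of the 10 genes were higher with SNF5 (CDK6, CCND1, CDK2 and RB1), beside 11.5% of all genes, and 1, CCND3, was lower, beside 7.38%, which makes 5 in all, beside 18.9%.

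RB1 (chr13:48877883-49056026, plus strand), the substrate of these kinases and the founding tumor suppressor of the family, rose with both constructs. Its levels were 0.66, 0.77 and 0.65 with EGFP, 0.83, 0.91 and 0.73 with OmoMYC and 0.94, 1.00 and 0.88 with SNF5. The SNF5 samples were all higher than the EGFP samples, and the OmoMYC samples lay between and overlapped both. The fold was 1.36 with SNF5 (log2 0.44, standard error 0.05, edgeR adjusted p = 0.000581) and 1.18 with OmoMYC (log2 0.24, standard error 0.05, edgeR adjusted p = 0.0333). The level with SNF5 was also above that with OmoMYC (log2 0.20, standard error 0.05, edgeR adjusted p = 0.0334), a call lost without replicate 1 or replicate 2 (up to 0.238). The rise with SNF5 was called in 10 of 11 alternatives, again with the exception of the fit without the block (edgeR adjusted p = 0.124), whereas the rise with OmoMYC was lost without replicate 1 or replicate 2 (edgeR adjusted p of up to 0.525). RBL1 (chr20:35626178-35724410, minus strand), which encodes the related pocket protein p107, was not called with SNF5 (log2 0.06, 95% confidence interval −0.06 to 0.19) or with OmoMYC (log2 −0.10, −0.23 to 0.03).

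CDK6 and RB1 are long genes, with gene bodies of 230707 and 177144 bp, and gene length moved with the SNF5 result. Among 2855 tested genes with a gene body of at least 100 kb, 38.3% were called higher with SNF5 and 7.81% lower, and their median log2 fold change was 0.21. With OmoMYC 9.04% of them were higher and 2.73% lower, and for SNF5 against OmoMYC 25% were higher and 6.23% lower. CCND3, with 112940 bp, also belongs to this class, and it was not called against EGFP and was lower in SNF5 against OmoMYC. The part of gene length in the changes of CDK6 and RB1 was not tested.

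Promoter-proximal polymerase is counted in the densest 50 bp window around the start, and the pausing index is its density over the density in the gene body. A gene whose polymerases wait longer before release has a higher index. With SNF5, edgeR called 0 of the 10 genes in the promoter-proximal region (2 at an unadjusted p under 0.05, 0 by DESeq2 and 0 by limma), beside 4.27% of 11241 genes tested. With OmoMYC it called 1, CCNE2, which was higher, beside 1.63% of genes called higher and 1.8% in either direction. For SNF5 against OmoMYC edgeR called 0 (1 at an unadjusted p under 0.05, 0 by DESeq2 and 0 by limma), beside 0.827%. For the pausing index edgeR called 0 of 10 in every comparison, with 2, 2 and 1 at an unadjusted p under 0.05 for SNF5, OmoMYC and SNF5 against OmoMYC, and DESeq2 and limma called 0 as well. Over 11171 genes the index was called in 3.66%, 2.26% and 1.23%. The median log2 change of all genes with OmoMYC was 0.13 in the promoter-proximal region and 0.14 for the index, against which the values of single genes can be read.

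CCNE2, the cyclin E2 gene, had promoter-proximal counts of 14, 98 and 111 with EGFP, 55, 196 and 129 with OmoMYC and 37, 178 and 149 with SNF5. Scaled for depth, OmoMYC was 3.94-, 2.02- and 1.15-fold and SNF5 2.27-, 1.51- and 1.40-fold the EGFP value of the same replicate, while the groups overlapped. The log2 fold change was 0.92 with OmoMYC (standard error 0.25, edgeR adjusted p = 0.0471) and 0.63 with SNF5 (standard error 0.25, edgeR adjusted p = 0.136). The call with OmoMYC was made in 5 of 11 alternatives and was lost with DESeq2, limma, other scaling factors, without the block and without replicate 1 or 2 (edgeR adjusted p of up to 0.994). The pausing index of CCNE2 changed by a log2 of 0.82 with OmoMYC (edgeR adjusted p = 0.114) and 0.74 with SNF5 (edgeR adjusted p = 0.135). With replicate 3 left out, the value with OmoMYC was 1.32 and was called (edgeR adjusted p = 0.00205).

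For CDK6 the promoter-proximal counts were 11, 77 and 62 with EGFP, 28, 65 and 59 with OmoMYC and 25, 118 and 75 with SNF5. Within replicates SNF5 was 1.95-, 1.28- and 1.26-fold EGFP, less than the gene body folds, and the fitted log2 change was 0.43 (95% confidence interval −0.09 to 0.96, edgeR adjusted p = 0.351). The pausing index within replicates was 0.83-, 0.54- and 0.60-fold (log2 −0.73, standard error 0.26, edgeR adjusted p = 0.104), which did not pass the threshold. CDK2 gave index changes of 0.50 with SNF5 (edgeR adjusted p = 0.327) and 0.71 with OmoMYC (edgeR adjusted p = 0.188). CDK4, the gene with the shared MYC peak, had an index change of 0.03 with SNF5 (95% confidence interval −0.43 to 0.50) and 0.35 with OmoMYC (−0.11 to 0.82). Intervals this wide leave room for changes of the size seen in the gene bodies.

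**Figure D3:**
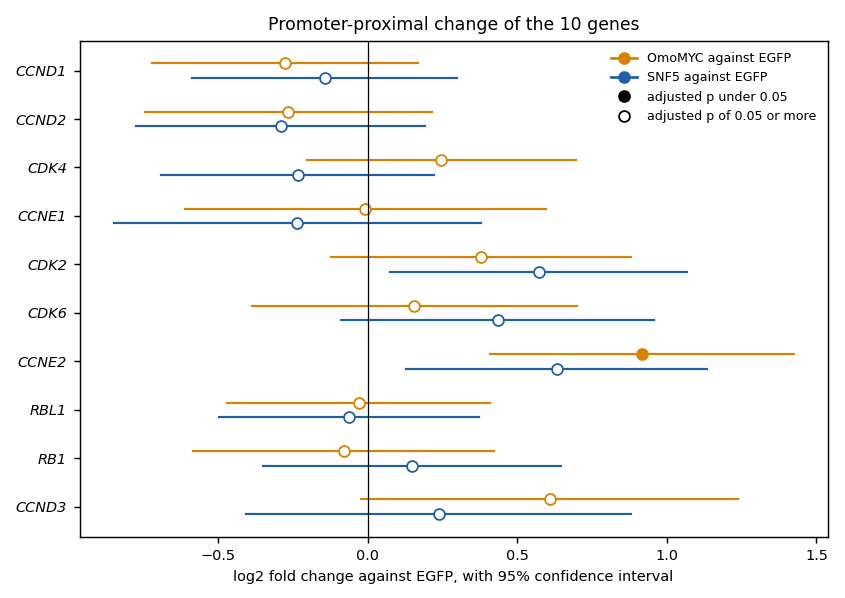
Promoter-proximal log2 fold change against EGFP (x axis) of the 10 genes (y axis) with OmoMYC and with SNF5, as point and 95% confidence interval, filled where the adjusted p was under 0.05. The intervals are wider than those of the gene bodies, and the 1 filled point is CCNE2 with OmoMYC at 0.92.

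Chromatin accessibility was compared through the ATAC-Seq peaks called in each sample, in GRCh38 coordinates. The starts of RB1, CDK4, CCNE1 and CCNE2 had a peak summit within 1 kb in all 9 samples, with fold enrichments from 3.91 to 8.72. In EGFP and in OmoMYC these were the 4 genes open in all 3 samples, beside 30.4% and 27.2% of 19117 protein-coding genes. With SNF5 there were 5, RBL1 being the fifth, beside 43.9%. The RBL1 start had a peak in 1 of 3 EGFP, 1 of 3 OmoMYC and 3 of 3 SNF5 samples, the CDK2 and CCND3 starts in 1, 1 and 2, and the CCND2 start in 1, 1 and 2. CCND1 had no peak within 1 kb of its start in any sample, and CDK6 had one in a single SNF5 sample. Farther into CDK6, a site 3.4 kb downstream of its start had a peak in 3 EGFP, 2 OmoMYC and 3 SNF5 samples. Another, at 2.6 kb, had one in 1 EGFP, 2 OmoMYC and 2 SNF5 samples. The samples differed in their number of peaks, from 9208 to 17817 with EGFP, 7260 to 23684 with OmoMYC and 22722 to 33596 with SNF5. When each sample was cut to its 7260 strongest peaks, 3 genes were open in all EGFP samples, 1 in all OmoMYC samples and 3 in all SNF5 samples. Of all 19117 protein-coding genes, 3996, 3783 and 3862 were then open in all EGFP, OmoMYC and SNF5 samples.

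**Figure D4:**
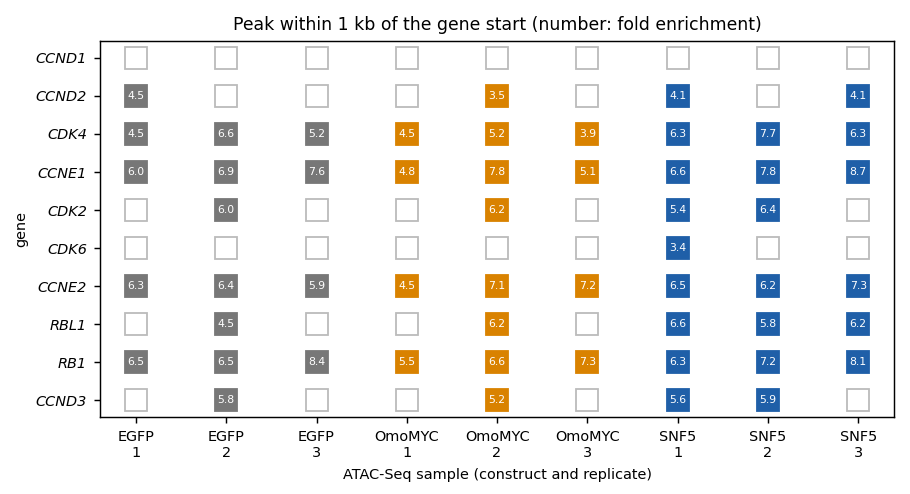
ATAC-Seq peaks within 1 kb of the start of each of the 10 genes (y axis) in each of the 9 samples (x axis, construct and replicate), with a filled square for a peak, an open square for none and the fold enrichment in the square. CDK4, CCNE1, CCNE2 and RB1 are filled in all 9 samples and CCND1 in none.

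Merged over the 9 samples, the peaks at the 10 loci with 10 kb on each side made 29 sites, of which 5 were found in all 9 samples, 3 were gained with SNF5 (in 3 of 3 SNF5 and 0 of 3 EGFP samples) and 0 were lost. With OmoMYC 0 sites were gained and 0 lost. All 3 gained sites lay inside CDK6. With sites matched by summits within 150 bp, 1 was at CDK6 and another at RBL1. The 3 merged sites inside CDK6 were 140.8, 194.4 and 220.5 kb downstream of the CDK6 start. They lay at chr7:92695466-92695896, chr7:92641965-92642404 and chr7:92615704-92616246. In the 3 SNF5 samples their fold enrichments were 4.12, 4.71 and 4.59, then 5.72, 5.53 and 5.34, then 5.96, 5.44 and 5.97. The middle site was also found in 1 OmoMYC sample. At least 1 gained site was found at 10.6% of protein-coding loci and at 26.7% of the 3315 loci of at least 100 kb, and at least 3 at 2.08% of the latter.

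The number of peaks at the CDK6 locus was 1, 2 and 1 with EGFP, 0, 4 and 2 with OmoMYC and 11, 6 and 5 with SNF5. The SNF5 samples did not overlap the others (exact two-sided permutation test against EGFP, p = 0.1, the smallest that 3 samples against 3 can give). CDK6 was singled out for its 3 gained sites, which every SNF5 sample and no EGFP sample had. Those sites alone separate the SNF5 from the EGFP samples, so the test adds no support for more peaks at CDK6. Over all 10 loci there were 11, 16 and 8 peaks with EGFP, 6, 21 and 12 with OmoMYC and 28, 23 and 19 with SNF5 (exact permutation test for SNF5 against EGFP, p = 0.1). Per 10000 peaks of the sample these were 8.83 ± 0.15 (SD, n = 3) with EGFP, 8.98 ± 0.78 with OmoMYC and 8.45 ± 0.17 with SNF5. Over the 10 loci together, the higher number thus went with the higher number of peaks with SNF5. At CDK6 the mean went from 1.33 peaks with EGFP to 7.33 with SNF5, while the mean of all peaks went from 13170 to 27641. The CDK6 number was not scaled to all peaks. With the 7260 strongest peaks of each sample, 0 sites were gained at the 10 loci. Over the genome, 180 sites were then gained with SNF5, in place of 3638 with all peaks. Read numbers at the sites were not analysed here.

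**Figure D5:**
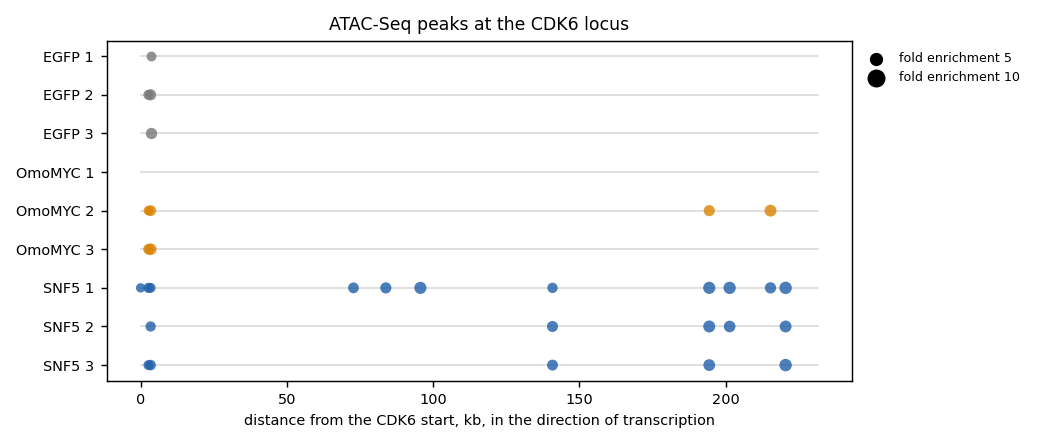
ATAC-Seq peaks at the CDK6 locus by distance from the gene start in kb along the direction of transcription (x axis), in each of the 9 samples (y axis), with gray lines for the length of the gene and point area proportional to the fold enrichment. The 3 SNF5 samples share peaks at 140.8, 194.4 and 220.5 kb, where no EGFP sample has one.

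Around the 10 genes, 35 further genes of the pathway were examined, of which 33 could be tested in the gene body. With SNF5, 5 of these rose and 6 fell, near the shares of all genes (17.6% and 16.5%), and with OmoMYC 1 rose and 4 fell, beside 4.1% and 4.42%. The largest rises with SNF5 were those of CDKN2B, CDKN2A and CDKN2C. CDKN2B, which encodes p15, went from 0.13 ± 0.047 to 0.46 ± 0.22 RPKM (SD, n = 3, log2 1.74, edgeR adjusted p = 0.00113). This rested on few gene body reads, 32, 24 and 20 with EGFP and 115, 124 and 54 with SNF5. CDKN2A, which encodes p16 and ARF, went from 0.33 ± 0.034 to 0.68 ± 0.26 (log2 0.97, edgeR adjusted p = 0.00873), and CDKN2C, which encodes p18, from 2.06 ± 0.93 to 3.10 ± 1.59 (log2 0.56, edgeR adjusted p = 0.0199). The p15, p16 and p18 proteins bind and inhibit CDK4 and CDK6. CDKN2A was counted on 1 transcript, NM_058195, so its level does not separate p16 from ARF. Its levels in replicates 1, 2 and 3 were 0.29, 0.34 and 0.35 with EGFP and 0.70, 0.93 and 0.41 with SNF5. The other CDK inhibitor genes in the list were not called with SNF5, namely CDKN2D (log2 −0.20, edgeR adjusted p = 0.331), of the same INK4 family, CDKN1A (0.0046), CDKN1B (−0.11) and CDKN1C (0.43).

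The largest falls with SNF5 among the pathway genes were those of E2F2, E2F1 and CKS1B. E2F2 changed by a log2 of −0.82 (edgeR adjusted p = 0.000466), E2F1 by −0.49 (edgeR adjusted p = 0.0055) and CKS1B, which helps SCF-SKP2 to degrade the inhibitor p27, by −0.39 (edgeR adjusted p = 0.012). With SNF5, E2F3 (log2 −0.016), E2F5 (−0.20), E2F7 (−0.026), E2F8 (0.079) and TFDP2 (0.10) were not called. The remaining E2F genes of the list had lower mean levels with SNF5 than with EGFP. These were 4.52 against 5.34 for E2F4, 3.71 against 4.32 for E2F6 and 2.42 against 3.02 for TFDP1. The SNF5 and EGFP samples overlapped for E2F4 (3.93 to 5.36 and 4.80 to 5.87) and TFDP1 (1.92 to 2.77 and 2.36 to 3.72). They did not overlap for E2F6 (3.66 to 3.75 and 4.07 to 4.61). With OmoMYC, E2F2 changed by −0.74 (edgeR adjusted p = 0.0126), CDC25A, a phosphatase that activates CDK2, by −0.41 (edgeR adjusted p = 0.0448) and the E2F partner TFDP1 by −0.31 (edgeR adjusted p = 0.0273), while MNAT1, a subunit of the CDK-activating kinase, rose by 0.25 (edgeR adjusted p = 0.0364). The median log2 fold change of the 33 genes was −0.063 with SNF5 and −0.11 with OmoMYC. CDK3 is not in the table, and CCNA1 had too few reads for a test.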

How the data were processed

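The authors aligned MYC ChIP-Seq reads to hg19 and ATAC-Seq reads to hg38 with Bowtie2 and called peaks per sample with MACS2 at q-values of 0.01 and 0.001. The deposited lists give position, summit, a fold ratio over background and −log10 q. For PRO-Seq (hg19) the authors counted reads per RefSeq transcript with NRSA, and the deposited table holds raw counts and a gene body signal, the density, which was checked against the counts. IgG samples were not used here.

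The 10 genes and the pathway list were chosen with earlier results of these data known. Named pathway genes were the up to 3 with the largest rise and fall per gene body comparison with EGFP among those called. 1 transcript per symbol was kept, with a mean of at least 10 reads. Counts were tested in edgeR 4.0.16 (R 4.3.3), with RLE factors of gene body counts and, as the study accounted for batch, the replicate number as a block. Calls had an adjusted p under 0.05. Across genes, deviations of same-numbered samples correlated between 0.75 and 0.88 in the gene body and those of other samples between −0.67 and 0.12, so the numbers were taken to pair samples. The pausing index was the interaction of region and construct with a term per sample. DESeq2 1.42.0 and limma 3.58.1 were alternatives, beside other scalings, filters, windows and thresholds. Peaks used starts of the table (hg19) or of RefSeq (GRCh38.p14), with no conversion between builds. Python 3.11.15 with SciPy 1.17.1 and pysam 0.24.0 was used. The smallest p that exact permutation of 3 against 3 samples allows is 0.1. Not every neighbor of CDK6 is reported here.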

Additional observations from a re-analysis of the deposited data

How the results depend on the processing

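Without the replicate block, 0 of the 10 genes were called in the gene body in each of the 3 comparisons and 0 in the promoter-proximal region with OmoMYC, although the samples pair by number. Over all genes the gene body calls without the block were 225 in place of 5131 with SNF5, 1 in place of 1284 with OmoMYC and 75 in place of 2848 for SNF5 against OmoMYC, and promoter-proximal and pausing index calls were 0. Leaving out 1 replicate number at a time gave between 2 and 6 of the 10 genes with SNF5 (5 with all samples), between 0 and 6 with OmoMYC (3), between 1 and 7 for SNF5 against OmoMYC (5), between 0 and 1 in the promoter-proximal region with OmoMYC (1) and between 0 and 1 for its pausing index (0). The higher counts came without replicate 3, and over all genes the gene body calls were then 8466, 6723 and 6205, against lows of 1453, 2 and 739 without another replicate. DESeq2 gave 2039 with OmoMYC. A mean of at least 50 reads left 3 genes with SNF5, and a fit of only the 6 samples compared left 3 with SNF5 and 2 for SNF5 against OmoMYC. The promoter-proximal call of CCNE2 with OmoMYC became 0 calls with RLE factors of that region, DESeq2 or limma. CDK6 and RB1 with SNF5 kept their calls in every alternative except the fit without the block. Of 978 values of single genes under alternatives, 923 kept their call or stayed uncalled, 48 were no longer called, 7 became called and 0 called values changed sign, while 52 uncalled values did.

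For MYC, the number of genes with a peak at the start (1) was 3 with 5 kb, 0 with a reciprocal overlap of at least 50%, 2 with all GENCODE starts and between 1 and 4 with 1 EGFP sample left out. Over all genes the number (884) was 1012 with 5 kb and 381 with the reciprocal overlap. It was 1292 among GENCODE genes with all their starts, and 885 or 4711 with 1 EGFP sample left out. The strongest 7260 peaks of each ATAC-Seq sample gave 1 open gene in all OmoMYC samples (4 with all peaks), 3 in all SNF5 samples (5) and 0 gained sites (3 with SNF5). Over all protein-coding genes, 3783 were then open in all OmoMYC samples (5204 with all peaks) and 3862 in all SNF5 samples (8388). Over the genome, 180 sites were then gained with SNF5 (3638). Leaving out a replicate gave between 4 and 6 gained sites, of which 3 or 4 were at CDK6 and the others at CCND2, CDK4 or RBL1. Over the genome, between 4466 and 8249 sites were then gained with SNF5. A q-value of 1e-05 gave 2, both at CDK6, and 3461 over the genome. Peak lists carry no read counts. The study reports the number of reads of each library, which was not used here. The cause of these differences was not tested.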

Other observations

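For each of the 10 genes called in the gene body against EGFP, the most similar genes were ranked by Pearson's r of log2 levels over the 9 samples after the mean of each replicate number was removed, among 13053 genes with a mean of at least 50 reads. The values describe how genes followed the constructs within replicates, and the samples share libraries and depth. For CDK6 these were MATN2 (r = 0.998), TRIM63 (0.998) and JARID2 (0.997), a subunit of the PRC2 complex. For RB1 they were STON1-GTF2A1L (0.992), DGKG (0.992) and TCF4 (0.992), and for CCND1 PAPPA (0.995), DLG2 (0.988) and ELK4 (0.986). For CCND2 they were CDC45 (0.997), a helicase subunit of the replication fork, PIGL (0.993) and TPD52L2 (0.987). For CDK4 the nearest gene was CCNE1 (0.989), another of the 10, followed by NDUFV3 (0.988) and TATDN1 (0.987), and TATDN1 (0.990) was also among the nearest of CCNE1, with KBTBD4 (0.992) and BOLA3 (0.991).

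Neighbors of CDK6 within 500 kb were looked at after the CDK6 values were seen. GATAD1, RBM48, FAM133B and MGC16142 were not called with SNF5, with log2 fold changes between −0.11 and 0.013. CCDC132, at −396 kb (upstream of the CDK6 start), rose with SNF5 (log2 0.26, edgeR adjusted p = 0.008) and with OmoMYC (log2 0.28, edgeR adjusted p = 0.0275), below the CDK6 value of 1.18 with SNF5.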
